A study of Homo sapiens with 4 samples.

Results

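The regions described here are places inside protein-coding genes where the transcription factor RUNX1 was found in both RUNX1 libraries and ETS1 was called in neither ETS1 library. Touching peaks of both RUNX1 libraries on chromosomes 1 to 22 and X were merged, and a merged region was kept when it held a peak of each library. A region was taken when it overlapped no ETS1 peak, had its midpoint inside a protein-coding gene of RefSeq (hg38), and had that midpoint more than 1000 bp from every end of a protein-coding gene. This gave 7287 of 22802 RUNX1 regions, or 32.0% (95% Wilson interval 31.4 to 32.6). Such intervals cover counting error only. The regions were thus chosen by RUNX1 peak calls, ETS1 peak calls and position, so their RUNX1 fold and their lack of ETS1 are given as descriptions, with no test.

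The study profiled ETS1 and RUNX1 by CUT&Tag in 6T-CEM, a line grown from a human leukaemia of immature T cells (T-ALL, acute lymphoblastic). In this assay a transposase is tethered to chromatin by the antibody, and the DNA it releases is sequenced. Each antibody was used in 2 libraries of the same line and the same kit, with no other treatment or genotype named, and IgG, a non-specific antibody, served as the control for peak calling. Nothing in the labels says that libraries of 1 antibody came from separate cultures, so the spread between them may be technical.

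RUNX1 binds DNA through its Runt domain, together with its partner CBFB, and it is needed for blood stem cells and for T-cell development. ETS1 is a founding member of the ETS family, is abundant in T cells, and can bind next to RUNX1 on composite sites such as those of the T-cell receptor enhancers. Much of what RUNX proteins do in T cells runs through enhancers and silencers that lie inside or far from genes, of which the silencer in the first intron of Cd4 is the best known in the mouse.

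The 4 libraries held 5611 to 25356 peaks, with 6070 and 5611 for ETS1 and 25356 and 24997 for RUNX1. The total number of reads is not given in the peak lists, and the pileup at each summit (the reads or fragments stacked there) was solved from the fold and its p-value. Over all peaks its median was 54 and 51 for ETS1 and 75 and 71 for RUNX1. An ETS1-free region is thus one without an ETS1 call at this depth, not one shown to lack ETS1. CUT&Tag measures no RNA, so the cell type could be checked only by which marker genes hold RUNX1 regions. Of 11 T-lineage markers, 10 held a RUNX1 region in the gene or within 1000 bp of it, all but TRAT1. The same held for 4 of 8 B-lineage markers, 3 of 8 myeloid, 2 of 5 erythroid and 3 of 8 non-blood markers. For ETS1-free intragenic regions alone the counts were 5 of 11 T-lineage, 3 of 8 B-lineage and 3 of 8 myeloid markers. They were 1 of 5 for erythroid and 2 of 8 for non-blood markers. The share over all genes was not counted in this way. RUNX1 at a gene end alone was found in 59.8% of genes with an ETS1-free region inside and in 44.2% of the others.

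Sequence was at hand for annotated transcript starts (RefSeq, GRCh38.p14; the table does not hold every start), so it is shown for regions that hold such a start. Of the 7032 regions on chromosomes that the table covers, 645 held an annotated start inside them, and 204 had both RUNX1 summits within the 250 bases before a start. The windows below run 5′ to 3′ over those 250 bases, with the core RUNX letters TGTGGT, or ACCACA on the other strand, in capitals. GRHL3-AS1 and LOC124906209 are shown because they are the strongest regions by fold with both summits inside such a window, and neither holds those letters. CPAMD8 and HSH2D-AS1 come next and hold them 5 and 2 times. FGR, TCF7 and GATA3 are shown as blood-cell genes, and they were chosen after their values were seen.
GRHL3-AS1, chr1:24321992-24322241, minus strand: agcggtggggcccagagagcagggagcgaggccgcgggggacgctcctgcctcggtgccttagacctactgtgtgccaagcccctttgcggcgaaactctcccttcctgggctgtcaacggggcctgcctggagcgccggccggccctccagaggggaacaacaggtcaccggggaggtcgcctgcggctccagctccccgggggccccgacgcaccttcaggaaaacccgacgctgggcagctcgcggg
LOC124906209, chr3:4831360-4831609, minus strand: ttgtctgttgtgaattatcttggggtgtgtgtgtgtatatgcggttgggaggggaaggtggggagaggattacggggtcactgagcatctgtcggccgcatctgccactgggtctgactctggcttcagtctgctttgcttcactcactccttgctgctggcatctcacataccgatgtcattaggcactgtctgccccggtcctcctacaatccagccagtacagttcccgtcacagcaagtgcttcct
CPAMD8, chr19:16896948-16897197, minus strand: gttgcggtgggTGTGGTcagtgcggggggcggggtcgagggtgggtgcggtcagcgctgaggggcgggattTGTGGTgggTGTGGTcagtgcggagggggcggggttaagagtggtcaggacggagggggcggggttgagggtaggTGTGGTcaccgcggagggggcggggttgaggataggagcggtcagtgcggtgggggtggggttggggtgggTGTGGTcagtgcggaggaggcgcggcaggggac
HSH2D-AS1, chr19:16139916-16140165, minus strand: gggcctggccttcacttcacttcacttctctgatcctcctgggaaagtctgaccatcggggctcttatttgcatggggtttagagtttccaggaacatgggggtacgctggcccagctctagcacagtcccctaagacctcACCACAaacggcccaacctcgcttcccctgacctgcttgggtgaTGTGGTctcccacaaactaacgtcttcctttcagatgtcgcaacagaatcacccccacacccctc
FGR, chr1:27626598-27626847, minus strand: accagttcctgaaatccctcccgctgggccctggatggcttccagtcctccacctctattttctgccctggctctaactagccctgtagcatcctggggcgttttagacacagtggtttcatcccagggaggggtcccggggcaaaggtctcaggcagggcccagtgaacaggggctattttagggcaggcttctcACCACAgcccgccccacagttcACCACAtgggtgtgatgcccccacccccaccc
TCF7, chr5:134115363-134115612, plus strand: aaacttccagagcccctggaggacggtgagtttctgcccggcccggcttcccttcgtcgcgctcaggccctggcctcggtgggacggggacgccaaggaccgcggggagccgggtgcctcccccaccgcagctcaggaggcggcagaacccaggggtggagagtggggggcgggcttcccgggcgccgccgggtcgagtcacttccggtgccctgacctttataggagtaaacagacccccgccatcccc
GATA3, chr10:8050986-8051235, plus strand: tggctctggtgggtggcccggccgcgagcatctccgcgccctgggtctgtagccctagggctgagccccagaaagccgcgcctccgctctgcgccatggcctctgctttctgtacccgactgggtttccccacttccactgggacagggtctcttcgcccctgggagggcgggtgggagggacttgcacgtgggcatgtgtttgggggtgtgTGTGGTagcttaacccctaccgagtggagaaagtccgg

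The region at GRHL3-AS1 lies inside GRHL3, which encodes a grainyhead-like transcription factor, and had RUNX1 folds of 76.6 and 68.2 in libraries 1 and 2, with both summits at -188 from the start. LOC124906209 is a non-coding RNA inside ITPR1, which encodes a calcium channel of the endoplasmic reticulum, and its region had folds of 40.5 and 45.2. The start inside CPAMD8, a gene of the alpha-2-macroglobulin family, had folds of 40.2 and 40.5, with the summits at -210 and -212. These regions were far above the median of all 7287, and the libraries differed little at each of them.

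HSH2D encodes a haematopoietic SH2-domain adaptor, and the start of its antisense RNA had folds of 31.9 and 29.7 with both summits at -6. At FGR, a SRC-family kinase gene of blood cells, the folds were 5.91 and 5.38, and the summits lay at -88 and -97. At an internal start of TCF7, which encodes the T-cell factor TCF1, the folds were 5.66 and 5.40, and the window holds no core letters. A summit of this region lies within 1000 bp of a gene end, unlike its midpoint, and an ETS1 peak lies 483 bp away. The start inside GATA3, a regulator of early T-cell development, had folds of 6.08 and 5.54 with both summits 31 bp after the start, and its window holds the letters once. The folds at FGR, TCF7 and GATA3 were below the median of the regions, in both libraries.

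Few of the windows at such starts held the core letters. Over the 300 bases from 250 before to 50 after the start, TGTGGT or its reverse complement was present in 14.9% (40 of 268 windows with both RUNX1 summits, 95% Wilson interval 11.2 to 19.7), against 13.4% of 30090 start windows in all. At gene ends without ETS1, whose windows are also rich in GC (median 69.3%), the share was 10.3% (8.89 to 11.8), and at gene ends with ETS1 (67.7%) it was 10.1%. At RUNX1 regions inside genes that had ETS1 the share was 16.5% (36 of 218 windows). Between genes it was 13.8% without ETS1 (94 windows) and 19.3% with ETS1 (57 windows). The interval of 11.2 to 19.7 covers these shares inside and between genes. The letters thus did not set the ETS1-free intragenic regions apart from these classes. The longer TGTGGTT was in 5.60% of the ETS1-free intragenic windows against 4.47% of all. It contains TGTGGT, so the searches overlap. The ETS letters CCGGAAG were in 14.6% of these windows and in 15.6% of windows at RUNX1 regions inside genes that had ETS1. They were in 19.9% at gene ends without ETS1, in 28.0% at gene ends with ETS1, and in 8.92% of all. Between genes the shares were 11.7% without ETS1 and 21.1% with it. Windows also differ in base composition: the median GC content was 67.7% at these regions and 57.3% over all windows, with a median of 26 and 11 CpG. The E-box CAGCTG was in 20.9% against 18.1%, and the GATA letters AGATAA were in 2.61% against 11.01%. AGATAA was also low in the other RUNX1 classes. It was in 1.38% inside genes with ETS1, and in 1.82% and 2.63% at gene ends without and with ETS1. Median CpG there was 29, 31 and 29. Between genes AGATAA was in 5.32% without ETS1 and 7.02% with it. A match is a description of the letters only, and no genome sequence around the other summits was used here.

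Annotated starts were less often inside the ETS1-free regions than inside those with ETS1. A start lay in 9.17% of the ETS1-free regions (95% Wilson interval 8.52 to 9.87) and in 32.7% of the 1515 intragenic RUNX1 regions with ETS1 on the same chromosomes (30.4 to 35.1). For starts of coding genes the shares were 7.38% and 30.2%, and for long non-coding RNAs 2.59% and 8.12%. Of the 645 regions with a start, 518 held a start of the gene they lie in. Most regions with a start therefore held a start of their own host gene, which need not be an alternative one. In CD79A, for example, it was the start at the gene's own 5′ end. The median fold of the 645 was 6.98. Regions with ETS1 were also wider (median 1622 against 752 bp), and a wider region has more room for a start, so width and ETS1 cannot be told apart in this share.

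MicroRNA hairpins lay in 18 of the regions, which held 19 of 1558 hairpins in the table. The 5 with the highest RUNX1 fold are shown by their mature sequences, with the seed (bases 2 to 8) in capitals. The table held 26 mature sequences of these hairpins, for some of them 1 arm only, and the 26 had different seeds.
hsa-miR-3202: uGGAAGGGagaagagcuuuaau
hsa-miR-648: aAGUGUGCagggcacuggu
hsa-miR-1287-5p: uGCUGGAUcagugguucgaguc
hsa-miR-1287-3p: cUCUAGCCacagaugcagugau
hsa-miR-4785: aGAGUCGGcgacgccgccagc
hsa-miR-5093: aGGAAAUGaggcuggcuaggagc
MIR3202-1 lies inside TMEM187 in a region with folds of 19.9 and 19.6 (libraries 1 and 2). MIR648 lies inside MICAL3 (17.0 and 18.1), MIR1287 inside PYROXD2 (16.2 and 16.8), and MIR4785 inside RBMS1 (14.1 and 12.9). MIR5093 lies inside GSE1 (9.73 and 9.19). The other regions with hairpins ran down to mean folds of 3.34 at MIR5189 in ZFPM1. MIR199B and MIR3154 share 1 region inside DNM1, with folds of 6.19 and 6.23. No microRNA was measured.

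RUNX1 was weaker at the ETS1-free intragenic regions than where ETS1 was also called. The median fold over IgG was 7.24 in library 1 and 7.36 in library 2, a mean of 7.30 ± 0.0805 (SD, n = 2). The quartiles ran from 5.11 to 11.7 in library 1 and from 5.08 to 11.8 in library 2, and the highest folds were 205 and 225. At the 1553 intragenic RUNX1 regions with ETS1 the median was 18.6 in both libraries. ETS1-free regions at gene ends (6.39 and 6.15) and between genes (7.42 and 7.56) were close to the intragenic ones.

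The summit pileup showed the same order. Its median was 64 and 61 at the ETS1-free intragenic regions and 203 and 193 at those with ETS1. The IgG expectation differed less, at 8.27 and 7.86 against 10.005 and 9.49. Only 682 of the ETS1-free regions (9.36%) had a mean fold above 20, against 46.2% of those with ETS1, while 62 were above 50.

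**Figure D1:**
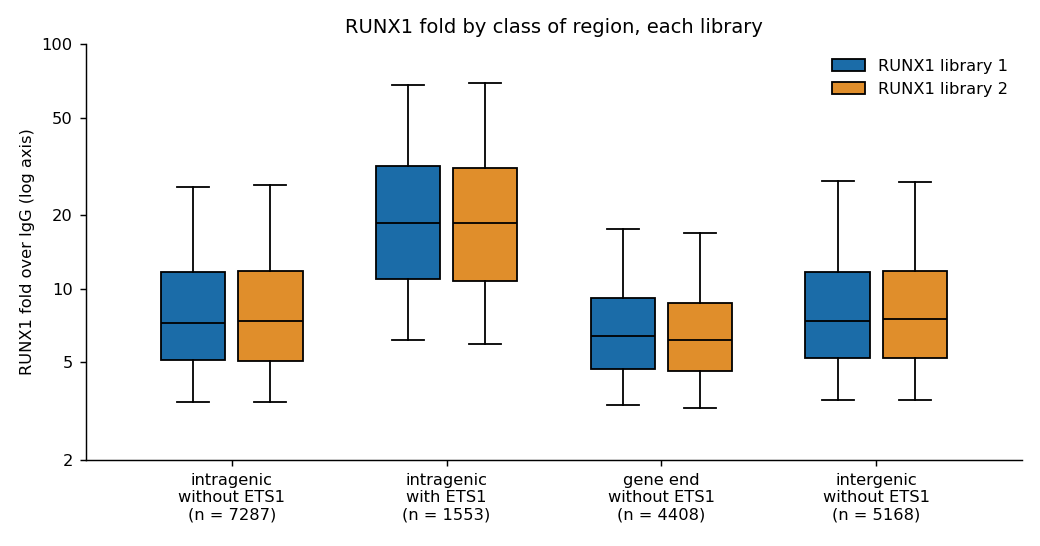
RUNX1 fold over IgG (log axis) in RUNX1 libraries 1 and 2 for 4 classes of region; boxes span the middle of the distribution from lower to upper quartile, lines mark medians and whiskers the 5th and 95th percentiles. The ETS1-free intragenic regions have medians of 7.24 and 7.36, and the intragenic regions with ETS1 18.6 in both libraries.

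The libraries agreed closely at these regions. Spearman's correlation of the fold between the libraries was 0.953 over the 7287 regions, as a description of 2 libraries made with the same antibody. The rule kept only regions with a peak of each library. The labels do not say which IgG library was the control. At several shared summits the solved IgG expectations kept nearly the same proportion between libraries, as at GRK5 (20.7 and 19.7) and DPF1 (14.5 and 13.8). At a shared summit in GSE1 they did not (15.9 and 13.8). The folds may thus share a denominator, which was not tested. The median ratio of library 2 to library 1 was 1.004, and 85.8% of the regions lay within 1.25 times of each other. The summits were a median of 9 bp apart, and 74.1% were within 50 bp. In 97.4% of the regions each library had a single peak. The regions spanned 291 to 9613 bp and covered 6.97 Mb in all.

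ETS1-free regions became fewer as RUNX1 became stronger, inside and outside genes. All 22802 RUNX1 regions were ranked by mean fold and divided into 10 equal groups. Of the intragenic regions, 98.8% lacked ETS1 in the weakest group, 90.1% in group 5 and 44.9% in the strongest group (461 of 1027). At gene ends the share ran from 89.2% to 17.2%, and between genes from 97.9% to 47.5%. Ranked by pileup in place of fold, the intragenic share ran from 98.0% to 35.0% and the gene-end share from 90.8% to 15.8%.

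**Figure D2:**
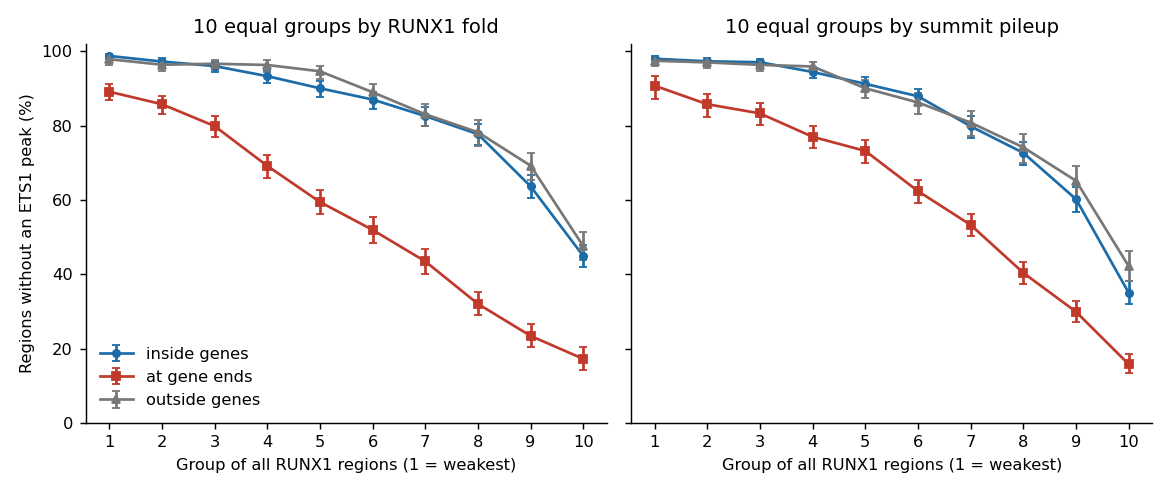
Share of RUNX1 regions without an ETS1 peak (percent) in 10 equal groups of all RUNX1 regions, ranked by fold (left) or summit pileup (right), inside genes, at gene ends and outside genes; bars are 95% Wilson intervals. By fold the share inside genes is 98.8% in the weakest group and 44.9% in the strongest, above the 17.2% at gene ends.

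ETS1 was often in the same neighbourhood. The nearest ETS1 peak lay a median of 46446 bp away, against 87590.5 bp for ETS1-free gene ends and 64124 bp for ETS1-free regions between genes. It was within 1 kb for 166 regions (2.28%), within 10 kb for 1683 (23.1%) and within 100 kb for 4691 (64.4%). The 3 closest lay inside ST3GAL2 (71 bp from an ETS1 peak, RUNX1 folds 9.40 and 10.8), OAZ1 (241 bp, 4.28 and 3.05) and ERG (311 bp, 14.99 and 15.01). Just outside the rule, the regions with the smallest overlap with ETS1 were in ZNRF1 (37 bp, folds 5.01 and 6.58), CSNK1D (161 bp, 4.69 and 3.02) and NDUFB10 (185 bp, 4.21 and 5.84).

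The cut on distance from gene ends also ran through a continuous range. The closest midpoints that were kept lay 1001 bp from an end in DYNLRB1 (folds 5.64 and 6.40), 1002 bp in B4GALNT3 (31.8 and 30.2) and 1003 bp in REXO4 (5.97 and 6.83). Those just left out were at 997 bp in BCAR3 (17.2 and 8.13), 993 bp in PBXIP1 and 991 bp in MTFR1L (5.64 and 4.88). The median distance was 14617 bp, and 633 regions (8.69%) lay within 2000 bp. In 91 regions (1.249%) a summit, unlike the midpoint, lay within 1000 bp of a gene end.

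The strongest ETS1-free intragenic region was in MAD1L1, which encodes a mitotic spindle checkpoint protein, at chr7:1961501-1962387. Its folds were 205 and 225, and its summit pileups 980 and 1030 over IgG expectations of 3.78 and 3.59. The fold adds 1 to the pileup and to the expectation, so it is smaller than their plain ratio. The next were in ADARB2, an RNA-editing family gene (chr10:1253430-1254454, folds 175 and 172), TUBGCP3, a gamma-tubulin complex gene (chr13:112573475-112575195, 138 and 130), and COL23A1, a collagen gene (chr5:178515082-178517793, 123 and 119). In each of these, library 1 and library 2 were within 1.25 times of each other.

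Ranks 5 to 10 were ZNF821 (folds 103 and 115), FAM178B (104 and 106), MINK1 (98.9 and 102.4), EP400 (95.8 and 93.6), RCBTB2 (95.02 and 86.4) and TDRD12 (75.02 and 105). EP400 encodes a chromatin-remodelling ATPase, and MINK1 a kinase of the germinal centre kinase family. At TDRD12 the libraries were further apart than at the others, with IgG expectations of 4.83 and 3.42 under their summits. A high fold here goes with a low IgG expectation: MINK1 had a pileup of 288 in both libraries over expectations of 1.92 and 1.82.

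Ranked by pileup, the strongest were in GRK5, a G-protein-coupled receptor kinase gene (chr10:119312369-119317548, pileups 1396 and 1309, folds 64.4 and 63.4), and DPF1, a gene of the BAF chromatin-remodelling complex in neurons (chr19:38211921-38215110, 1330 and 1292, folds 86.0 and 87.6). UBAC1, ADD1, WDR37, SH3BP5, MAD1L1, IQSEC1, TUBGCP3 and TNFRSF10A followed. Only MAD1L1 and TUBGCP3 were among the first 10 by both measures.

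The regions lay in 3767 of 19821 protein-coding genes, 19.0% of all. Of these genes 2320 held 1 region, 694 held 2, 452 held 3 or 4, 253 held 5 to 9 and 48 held 10 or more. The 301 genes with at least 5 (1.52% of all genes) held 2227 regions, or 30.6%. Host genes were longer: they had a median length of 54107 bp and the others 19809.5 bp, and the share of genes with a region ran from 0.504% in the shortest of 10 length groups to 39.8% in the longest. A region lay in more than 1 gene in 172 cases.

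The most regions were in GSE1, which encodes a coiled-coil protein of the BRAF-histone deacetylase complex, with 40 over 506689 bp. MAD1L1 held 35 and SEPTIN9, a cytoskeletal septin gene, 27. COL23A1, HDAC4, RPTOR and CDH4 held 20 each, TCF20 18, and IQSEC1 and PTPRN2 17 each. These are long genes, and the order changed when length was taken into account.

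Per 100 kb of gene, among genes with at least 5 regions, TBKBP1 came first with 6 regions (33.3 per 100 kb), followed by CD81 with 6 (28.3), ABCA2 with 6 (27.7), DPF1 with 5 (26.8) and KASH5 with 7 (23.5). CD81 encodes a tetraspanin of lymphocytes, and its 6 regions all had mean folds below the overall median, the strongest with 5.42 and 6.14. In TBKBP1, a TBK1 adaptor gene, the strongest had 18.3 and 17.3, while the weakest had 3.06 and 3.33.

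Host genes more often had RUNX1 at an end as well. A RUNX1 region lay within 1000 bp of an end in 59.8% of the host genes (2253) and in 44.2% of the other genes, and 1514 host genes had none. ETS1 was at an end of 20.3% of the host genes and of 18.7% of the others. Host genes are longer, and within length groups the ETS1 share was higher in host genes in all but the shortest. It was 12.6% against 7.71% in the longest group, and 10% against 16.0% in the shortest. A RUNX1 region with ETS1 inside the gene was found in 689 host genes (18.3%), against 1265 of all 19821 genes (6.38%). All genes here include the longer host genes, and this share was not split by length group. The share with RUNX1 at an end was higher in host genes in each of the 10 length groups, for example 44.9% against 31.1% in the longest, although the shortest group had only 10 host genes.

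The regions were spread along their genes. For the 5703 with 1 host gene of known strand, the median position was 46.3% of the way from the 5′ end, 53.2% lay in the 5′ part up to the gene's middle, and 24.5% lay within 10 kb of the 5′ end. The 1259 intragenic RUNX1 regions with ETS1 were nearer to it, with a median position of 40.3% and 38.5% within 10 kb. The median distance from the 5′ end was 31.3 kb without ETS1 and 16.8 kb with it.

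In 12 of the 14 lists more genes held a region than the average share of their length groups gives, lists of other cell types included. Of these, the erythroid list was near its number, with 1 gene against 0.925. The PI3K-AKT-mTOR list was just below its number (6 against 6.17), and the housekeeping list was below as well. No test was made on the lists, and each count stands beside the number that genes of the same 10 length groups would give at their average share. For reference, 19.0% of all genes held a region. The strongest region of a gene is the one with the highest mean fold, and its folds in libraries 1 and 2 are given in that order.

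Among T-lineage and T-ALL transcription factors, 17 of 33 held a region, against 8.23 from the length groups. RUNX3, the RUNX family member of cytotoxic T cells, held 9, of which the strongest (chr1:24924831-24926234) had folds of 61.4 and 60.9 and pileups of 526 and 499. A weaker one at an internal RUNX3 start had 18.3 and 13.5. ETV6, an ETS-family repressor lost in some leukaemias, had a region with folds of 38.3 and 42.0 (chr12:11726490-11728438), and FLI1, an ETS-family activator, one with 38.0 and 42.3 (chr11:128725043-128727105). ZBTB7B, which encodes the CD4-lineage factor ThPOK, had 31.3 and 34.0 (chr1:155013311-155017936). The strongest of the list were thus similar in both libraries and more than 4 times the overall median.

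Other factors of this list held weaker regions. RUNX1 itself held 9 ETS1-free regions, the strongest with folds of 16.8 and 12.2, beside 4 regions with ETS1. IKZF1, the Ikaros gene, held 4, up to 15.7 and 17.2, and RUNX2 2, up to 22.04 and 22.4. The stronger RUNX2 region holds an annotated RUNX2 start. TCF7 held 4 (up to 6.38 and 5.20), GATA3 3 (6.08 and 5.54), BCL11B 3 (6.64 and 6.47) and ETS1 2 (7.85 and 9.53). TAL1, LMO1, TLX1, TLX3, HOXA9, LYL1, MYB, TOX and LEF1 were among the 16 genes with none. Of these, TAL1, LMO1, LYL1, MYB, TOX and LEF1 had RUNX1 at an end, and LYL1 and MYB each held 1 region with ETS1. TLX3, HOXA9 and LYL1 are 2892, 3100 and 3826 bp long, which leaves little room for a region under the rule.

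Of the T-cell receptor complex and proximal signalling genes, 21 of 30 held a region, against 7.53 from the length groups, with 48 regions in all. CD4, the coreceptor of helper T cells, held 1 (chr12:6790611-6793481) with folds of 41.5 and 41.7 and pileups of 555 and 533, 7210 bp from the nearest ETS1 peak. The adaptor gene FYB1 had 33.5 and 33.1, and the CD247 gene of the receptor's zeta chain 32.5 and 29.0 (chr1:167454762-167457270). LCP2, which encodes the adaptor SLP-76, had 21.1 and 26.0, and NFATC1 23.6 and 22.5. CD8A held 3 regions, up to 11.8 and 14.1, the kinase gene LCK 2 (up to 8.17 and 9.72) and ZAP70 3 (up to 5.02 and 4.59). CD3D, CD3E, CD3G and PTPRC held none, although CD3D, CD3E and CD3G had RUNX1 at an end. Whether the CD4 region corresponds to the mouse silencer was not tested.

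**Figure D3:**
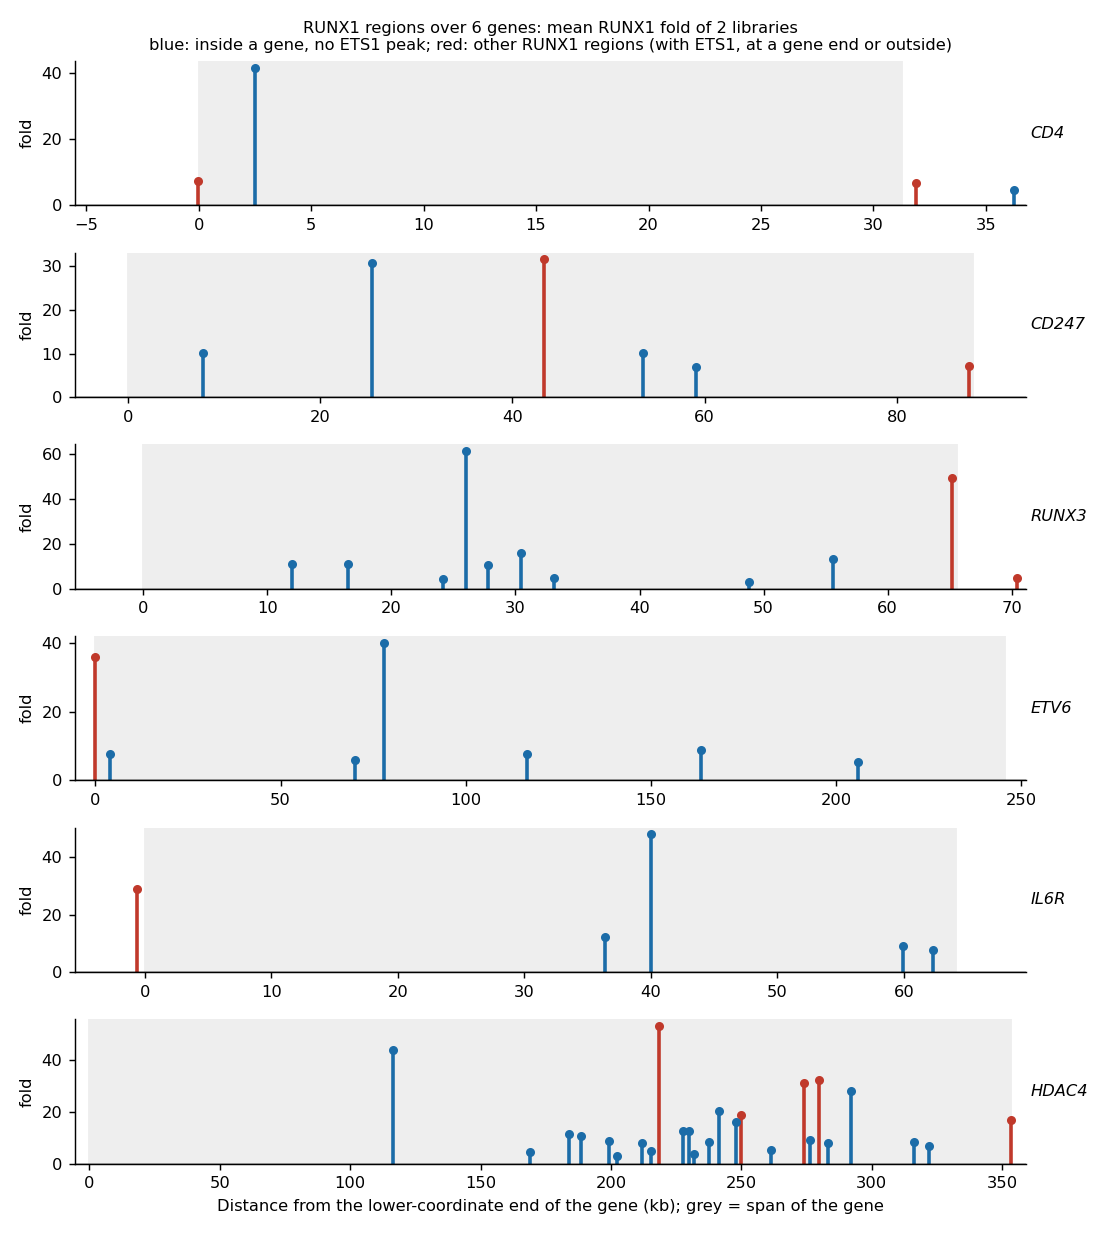
Mean RUNX1 fold over IgG of 2 libraries (linear axis) at each RUNX1 region over CD4, CD247, RUNX3, ETV6, IL6R and HDAC4, against the distance from the lower-coordinate end of the gene in kb; grey marks the gene, blue the ETS1-free regions inside a gene and red all other RUNX1 regions. In CD4 a single blue region at a mean fold of 41.6 stands inside the gene, while HDAC4 holds 20 blue regions.

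Cytokine receptor and JAK-STAT genes held regions in 13 of 24 (5.06 from the length groups). IL6R, the interleukin-6 receptor gene, held 4, the strongest at chr1:154444703-154445967 with folds of 48.4 and 47.7. IL2RA, which encodes the alpha chain of the interleukin-2 receptor, had 29.4 and 30.6, and IL21R 26.2 and 25.2 among its 6. STAT5B, a signal transducer downstream of these receptors, had 14.3 and 16.7. IL7R held none. A second region of IL2RA differed between the libraries (8.93 and 15.9), with equal pileups of 88 over IgG expectations of 8.96 and 4.59.

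In the NOTCH pathway, the main oncogenic pathway of T-ALL, 9 of 20 genes held a region (4.71 from the length groups). The coactivator gene MAML3 had the strongest, with 42.8 and 43.6 (chr4:139950085-139951631). The ligand genes DLL4 and JAG1 had 15.1 and 12.3, and 13.3 and 10.7. NOTCH1 held 4, up to 7.14 and 6.72, beside 3 regions with ETS1, and DTX1, a NOTCH target, 5, up to 13.1 and 11.1. HES1 and NRARP, also targets, are 2585 and 2641 bp long, which leaves little room for a region under the rule, and both had RUNX1 at an end.

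The PI3K-AKT-mTOR genes were near the number for their length, with 6 of 20 against 6.17. INPP5D, the SHIP1 phosphatase gene, held 6, the strongest with 23.3 and 21.8. PIK3R5 (21.3 and 21.9) and PIK3CD (19.0 and 18.6), subunits found in leukocytes, followed, while RPTOR, an mTOR complex gene, held 20, the strongest with 18.8 and 15.1. PIK3CA and AKT1 were among the genes with none inside, and each had RUNX1 at an end.

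Of RUNX family members and CBF partners 7 of 12 held a region, against 4.02 from the length groups. Of chromatin regulators and T-ALL tumour suppressors 17 of 30 held a region (9.67 from the length groups). The deacetylase gene HDAC4 held 20, the strongest with 44.1 and 43.0, USP7 6 with 35.2 and 38.9 at most, NSD1 1 with 24.1 and 22.3, and CREBBP 5 with 23.4 and 21.9 at most. The NSD1 region lies 1268 bp from a gene end and holds annotated NSD1 starts, with its summits 76 and 75 bp after the nearest. PHF6, EED, SUZ12 and TET2 held none, although EED and SUZ12 had RUNX1 at an end. Of genes of adhesion, homing and egress 11 of 22 held a region (3.81), and 6 with gene ends drawn at 5000 bp, led by ITGA6 (27.9 and 27.7), CD44 (20.9 and 18.8) and the chemokine receptor gene CCR7 (14.6 and 17.2).

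Genes of other cell types were not free of these regions. Of the 30 neuronal and synaptic genes, whose median length is 707764 bp, 17 held 100 regions in all, against 11.4 genes from their length groups. The longest length group runs from 153306 to 2473620 bp under a single average share, so 11.4 does not fully match their length. PTPRN2 (39.0 and 39.0) and the potassium channel gene KCNQ1 (34.8 and 32.8) held the strongest. B-lineage markers held regions in 4 of 12 (2.35), with 14.5 and 15.5 at BLK and 7.09 and 6.72 at PAX5. Myeloid markers did so in 4 of 12 (1.48), with 4.33 and 4.96 at CSF1R and 4.75 and 5.12 at SPI1. With gene ends drawn at 5000 bp the counts were 2 for B-lineage and 1 for myeloid markers, and for peaks with −log10 q of at least 20 there were 2 of each. This q cut applied to RUNX1 and ETS1 peaks alike, so a region could also become ETS1-free when its ETS1 peak was dropped. KLF1 was the only one of 10 erythroid markers (6.19 and 4.87), against 0.925 from the length groups and 0 under either of these settings, and 4 of 16 other non-blood markers held a region (2.47). None of 16 housekeeping genes did (2.21, and 1 for peaks with −log10 q of at least 20), although 13 of them had RUNX1 at an end.

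The lists differed in how many genes held a region more than in how strong the regions were. The median fold of a list's regions lay between 5.53 and 9.45 in the 13 lists described here with any, against 7.30 over all regions. The highest of these medians was that of the other non-blood markers, whose 13 regions include 9 in TG, the thyroglobulin gene. Of those 9, 6 lie also in SLA, a T-cell adaptor gene nested within TG.

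**Figure D4:**
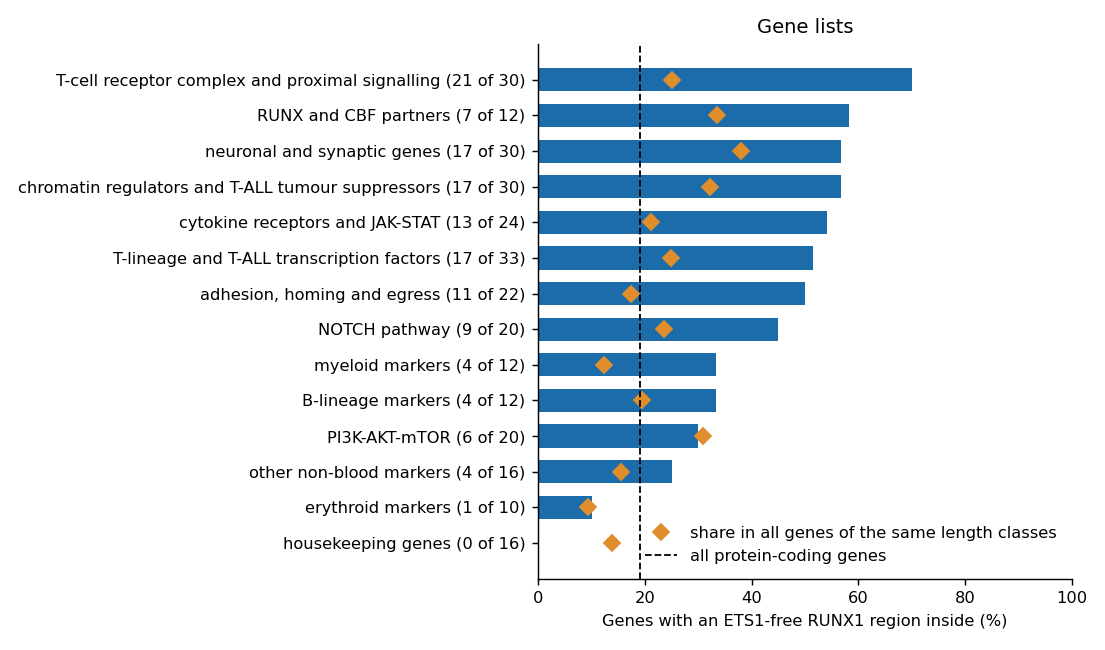
Share of the genes of each of 14 lists that hold an ETS1-free RUNX1 region inside (percent, bars), with the share in all genes of the same length groups (diamonds) and in all protein-coding genes (dashed line, 19.0%). The T-cell receptor list is highest with 21 of 30 genes, and the housekeeping list has 0 of 16.

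The regions were unevenly spread over chromosomes and were dense near chromosome ends. Over 1218 Mb of gene body there were 5.98 per Mb, from 2.24 on chromosome X and 2.48 on chromosome 4 to 17.6 on chromosome 19 and 18.7 on chromosome 22. Within 5 Mb of a chromosome end lay 1867 regions (25.6%), although such stretches make up 8.08% of the gene body, which is 19.0 per Mb against 4.84 elsewhere. On chromosome 21, with 12.6 per Mb, 118 of 154 regions lay near an end. Of the intragenic RUNX1 regions with ETS1, 27.8% lay near an end as well. The median fold was 6.87 near the ends and 7.45 elsewhere, while 33 of the 100 strongest regions lay near an end. From 1 region to the next the median gap was 12685 bp, and 3363 (46.2%) had a neighbour within 10 kb.

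**Figure D5:**
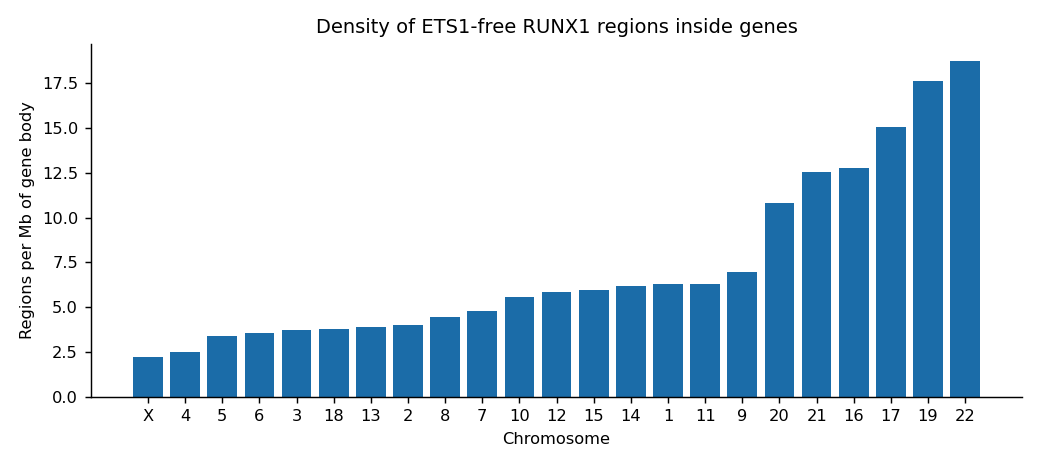
ETS1-free RUNX1 regions per Mb of protein-coding gene body on each chromosome, in rising order. Chromosome X has 2.24 per Mb and chromosome 22 has 18.7.

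A comparison over whole libraries took the share of each library's own summits that lay inside genes and away from their ends. This share draws on the same peak calls and gene positions as the choice of regions, so it gives no independent support. It was 39.7% ± 0.209 in the RUNX1 libraries and 27.0% ± 0.448 in the ETS1 libraries (SD, n = 2 each), a difference of 12.7 percentage points. The libraries did not overlap, and the two-sided exact permutation test gave p = 0.333, which is the smallest p that 2 against 2 libraries allow.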

How the data were processed

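CUT&Tag of ETS1 and RUNX1 in 6T-CEM cells gave 4 peak lists. The submitters' processing notes name hg38, MACS3 3.0.0a6, Bowtie2 and bcl2fastq 2.17, and the names of the deposited lists say that the authors called peaks per library against IgG. The Bowtie2 version, the call threshold and duplicate handling were not given in these sources. Each deposited peak carries a fold at its summit (a ratio to IgG, with 1 added to both terms, as its values show), −log10 p and −log10 q. The deposited score was not used. The fold of a region is that of its strongest peak in each library, and the median fold over regions is the authors' value summarised per library.

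Summit pileup and IgG expectation were solved from the deposited fold and −log10 p, which follow from MACS's definitions, within 0.01 in −log10 p or 5e-05 of it. This solved 100% of peaks and was tested on simulated data. Gene positions came from RefSeq's table for GRCh38.p14 without 153 coding genes listed by scaffold coordinates, which left 19821. The start windows matched 15812 of them and none on chromosome 8, so shares of regions with a start leave that chromosome out. Named regions are the 10 with the highest fold and with the highest pileup, the genes with the most regions in all and per 100 kb, the strongest regions of each of 15 gene lists, and regions with a start or a hairpin. 1 list and some genes that this rule names are not reported here. The regions and lists were chosen with earlier results of these data known. Replicate numbers were compared between antibodies as a check on pairing. Alternatives covered the q threshold, the ETS1 rule, overlap between libraries, the distance from gene ends, the letters searched and each library left out. The q threshold was applied to RUNX1 and ETS1 peaks alike. Windows of other lengths around summits were not run, since no genome sequence was used here. Python 3.11.15, pandas 2.3.3, SciPy 1.17.1, statsmodels 0.14.6 and matplotlib 3.10.9 were used.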

Additional observations from a re-analysis of the deposited data

How the results depend on the processing

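The ETS1-free intragenic regions were 33.6% of RUNX1 regions when ETS1 had to be absent only from regions of both ETS1 libraries, 31.2% with no ETS1 peak within 1000 bp, 34.3% and 24.1% with gene ends drawn at 500 and 5000 bp, and 27.8% when regions within 1000 bp of an annotated start were left out, an alternative chosen after seeing the data. Leaving out 1 library gave 32.5% to 33.4%. The median fold was 8.06 and 10.5 for peaks with −log10 q of at least 10 and 20, 7.47 with ETS1 judged on both libraries, 7.42 with 50% reciprocal overlap, 7.67 with ends at 5000 bp and 7.44 without regions near a start, and 6.64 to 7.42 with 1 library left out. These shifts exceed the small spread between libraries and follow from which regions each setting keeps; the numbers of regions and of host genes stayed within 1.5 times of the values reported. The longer letters TGTGGTT were in 5.60% of windows, fewer by construction. Of 45 list counts under alternatives, 37 stayed within 1.5 times; the 8 others were B-lineage (4 to 2), myeloid (4 to 2), erythroid (1 to 0) and housekeeping (0 to 1) at −log10 q of 20, and adhesion (11 to 6), B-lineage (4 to 2), myeloid (4 to 1) and erythroid (1 to 0) with ends at 5000 bp. With the replicate number as a block, the difference in intragenic share was 12.7 points with an exact p of 0.5, the smallest that 2 pairs allow. The deviations of same-numbered libraries had a correlation of 0.0245 over 4701 regions, so the numbers were not taken as pairs. With 2 libraries per antibody and a median pileup near 60, a fold at a single weak region is imprecise, and absence of ETS1 depends on the depth of the ETS1 libraries.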
